A study of Mus musculus with 23 samples.

Results

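The AP-1 family of transcription factors was followed here through 10 genes, Fos, Fosb, Fosl1, Fosl2, Jun, Junb, Jund, Atf3, Batf and Maff, which were 10 of the 26512 genes tested. They were chosen by name, and a probe was taken as theirs if its RefSeq accession belonged to one of them. This gave 11 probes, a pair for Fosl2 and 1 for each other member, and the probe used for each gene was detected (well above background) throughout at least 1 group. RNA came from bone marrow-derived macrophages (BMDM) of male C57BL/6 mice and was hybridised with 1 dye to 23 whole-genome arrays, 1 per sample. The mice were wild-type (wt, aged 12 to 13 weeks), lacked the kinase MK2 (MK2-/-, 10 to 13 weeks) or lacked MK2 and the related kinase MK3 (MK2/3-/-, 11 to 14 weeks). MK2 and MK3 are activated by the stress kinase p38 in cells that meet lipopolysaccharide (LPS), a component of the bacterial outer membrane.

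All BMDM had been differentiated with M-CSF, were moved to medium without M-CSF before the experiment, and then received either medium alone or 100 ng/ml LPS for 120 min. Each of the 6 groups had 4 arrays, except MK2-/- BMDM in medium with 3. The deletions were carried by the mice and so were present throughout differentiation. Cells harvested before the medium was added were not analysed here, so every LPS value is set against cells that had medium for 120 min.

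AP-1 binds DNA as a pair of basic leucine zipper (bZIP) proteins. JUN proteins pair with one another or with FOS proteins, which cannot pair among themselves. FOS and JUN genes are the classical immediate early genes, whose transcripts appear within minutes of a stimulus and often decay soon after. ATF3 and BATF pair with JUN proteins and can act as brakes on inflammatory or AP-1-driven transcription, and MAFF is a small MAF protein without a transactivation domain. In macrophages, AP-1 acts beside NF-kB on many cytokine and protease genes.

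Mapkapk2, which encodes MK2, differed after LPS from wt BMDM by -2.81 on the log2 scale in MK2-/- and by -3.01 in MK2/3-/- BMDM, and Mapkapk3, which encodes MK3, by -3.30 in MK2/3-/- BMDM, each in the direction of the labels. Between 47.5% and 69.1% of the probes of an array were well above background. The 3 genotypes lay on 3 slides, 1 each, so slide and genotype cannot be told apart, and on every slide the medium arrays filled one row and the LPS arrays the other, so slide row and treatment cannot be told apart either. Of the macrophage markers, 9 of 10 were measured and all 9 were well above background on every array, with a summed linear signal between 637322 and 985193. Of the markers of other leukocytes, 3 or 4 of 6 for neutrophils, 1 to 3 of 6 for dendritic cells, 1 or 2 of 5 for T cells and at most 1 of 4 for B cells were well above background throughout a group, while Cd3d and Cd8a of T cells, Pax5 of B cells and Clec9a of conventional dendritic cells were so on no array. The summed signal of the dendritic cell markers lay between 106.3 and 424.7 in medium and between 996.2 and 2111 after LPS. With LPS the macrophage marker Cd14 and the dendritic cell marker Zbtb46 rose in all genotypes, Mertk and Fcgr1 fell in wt and MK2-/- BMDM, and Pax5, with no array above background, passed as higher in MK2-/- BMDM. The part of these cells in the members' values was not tested. No marker of any list passed in a genotype comparison. The markers of fibroblasts and stroma are given with Fosl1 below.

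Promoter sequences are shown for the members on which the results turn: Fos and Jun, which were lower after LPS in wt BMDM, Atf3, which with Jun differed between genotypes, and Maff, which rose most. They are the 250 bases before the annotated starts, credited to RefSeq on the GRCm38.p6 assembly and printed from 5′ to 3′ on the strand of the gene. Capitals mark matches of the NF-kB motif in Fos and at start 3 of Maff, and of the cyclic AMP response element TGACGTCA at start 2 of Maff. Start 1 of Maff held neither motif and is not shown.
Fos, chr12:85473640-85473889, plus strand: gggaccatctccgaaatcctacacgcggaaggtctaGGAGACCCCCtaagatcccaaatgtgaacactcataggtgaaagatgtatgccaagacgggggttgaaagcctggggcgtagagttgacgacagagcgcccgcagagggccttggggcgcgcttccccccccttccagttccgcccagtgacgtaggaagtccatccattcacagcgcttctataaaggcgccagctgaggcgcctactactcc
Jun, chr4:95052223-95052472, minus strand: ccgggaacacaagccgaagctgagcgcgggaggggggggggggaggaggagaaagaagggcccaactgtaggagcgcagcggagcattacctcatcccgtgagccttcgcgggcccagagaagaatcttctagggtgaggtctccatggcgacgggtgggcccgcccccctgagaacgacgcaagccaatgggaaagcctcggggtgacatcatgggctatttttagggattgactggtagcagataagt
Atf3, chr1:191183334-191183583, minus strand: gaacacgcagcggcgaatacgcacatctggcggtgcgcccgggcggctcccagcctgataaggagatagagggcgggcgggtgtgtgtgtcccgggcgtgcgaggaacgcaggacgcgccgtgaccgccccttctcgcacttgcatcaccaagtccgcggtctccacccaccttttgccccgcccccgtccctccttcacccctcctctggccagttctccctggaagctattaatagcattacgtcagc
Maff, start 2, chr15:79347270-79347519, plus strand: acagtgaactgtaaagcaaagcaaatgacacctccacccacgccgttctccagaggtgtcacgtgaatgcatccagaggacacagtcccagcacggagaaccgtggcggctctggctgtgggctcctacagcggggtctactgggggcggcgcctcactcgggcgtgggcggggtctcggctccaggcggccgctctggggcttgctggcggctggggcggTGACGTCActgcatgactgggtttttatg
Maff, start 3, chr15:79348152-79348401, plus strand: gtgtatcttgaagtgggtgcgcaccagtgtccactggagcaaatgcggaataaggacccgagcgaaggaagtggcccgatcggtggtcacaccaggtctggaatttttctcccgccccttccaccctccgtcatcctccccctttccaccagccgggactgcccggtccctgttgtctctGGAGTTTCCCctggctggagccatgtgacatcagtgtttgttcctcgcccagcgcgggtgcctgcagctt

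Windows of 300 bases around a start, 250 before and 50 after it, were matched for 9 of the 10 members, all but Fosl1, with 11 windows in all. The AP-1 site TGANTCA was in none of them, against 7.81% of the 32851 windows of all genes, counting both strands. The cyclic AMP response element was in 1 window, that of start 2 of Maff at position -29, against 1.79% of all windows. Matches of the NF-kB motif lay in windows of 4 of the 9 members, against 5.14% of all genes and 4.51% of all windows. They were in Fos at position -214, Fosb at -188, Fosl2 at -182 and -181, which overlap, and start 3 of Maff at -70. The CArG box, bound by SRF, was in no member's window and in 1.63% of all. These are letter matches in short windows and no measure of binding, and no match says only that the letters were not in this window.

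The first question was which members responded to LPS in wt BMDM. Of the 10 members, 6 passed the adjusted threshold (4 higher, 2 lower), while 16.9% of all genes did (8.16% higher, 8.78% lower). Of a gene with several probes the one most induced in this comparison was used, which favours rises among such genes, Fosl2 and genes of the wider lists included. The 4 that rose were Fosl2, Junb, Batf and Maff, and the 2 that fell were Fos and Jun. The median log2 difference of the 10 members was 1.08, and 0.0054 over all genes. In MK2-/- BMDM 7 of 10 members passed, 5 higher and 2 lower, against 18.4% of all genes (8.41% and 9.98%), and the member added to the 6 was Fosl1. In MK2/3-/- BMDM 8 of 10 passed, 7 higher and 1 lower, against 24.7% of all genes (11.9% and 12.8%), and here Jun was missing while Jund and Atf3 were added. The 3 comparisons set different arrays against each other but share 1 estimate of the spread, taken from all arrays. Whether a response differs between genotypes is tested only by the interactions given further below.

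**Figure D1:**
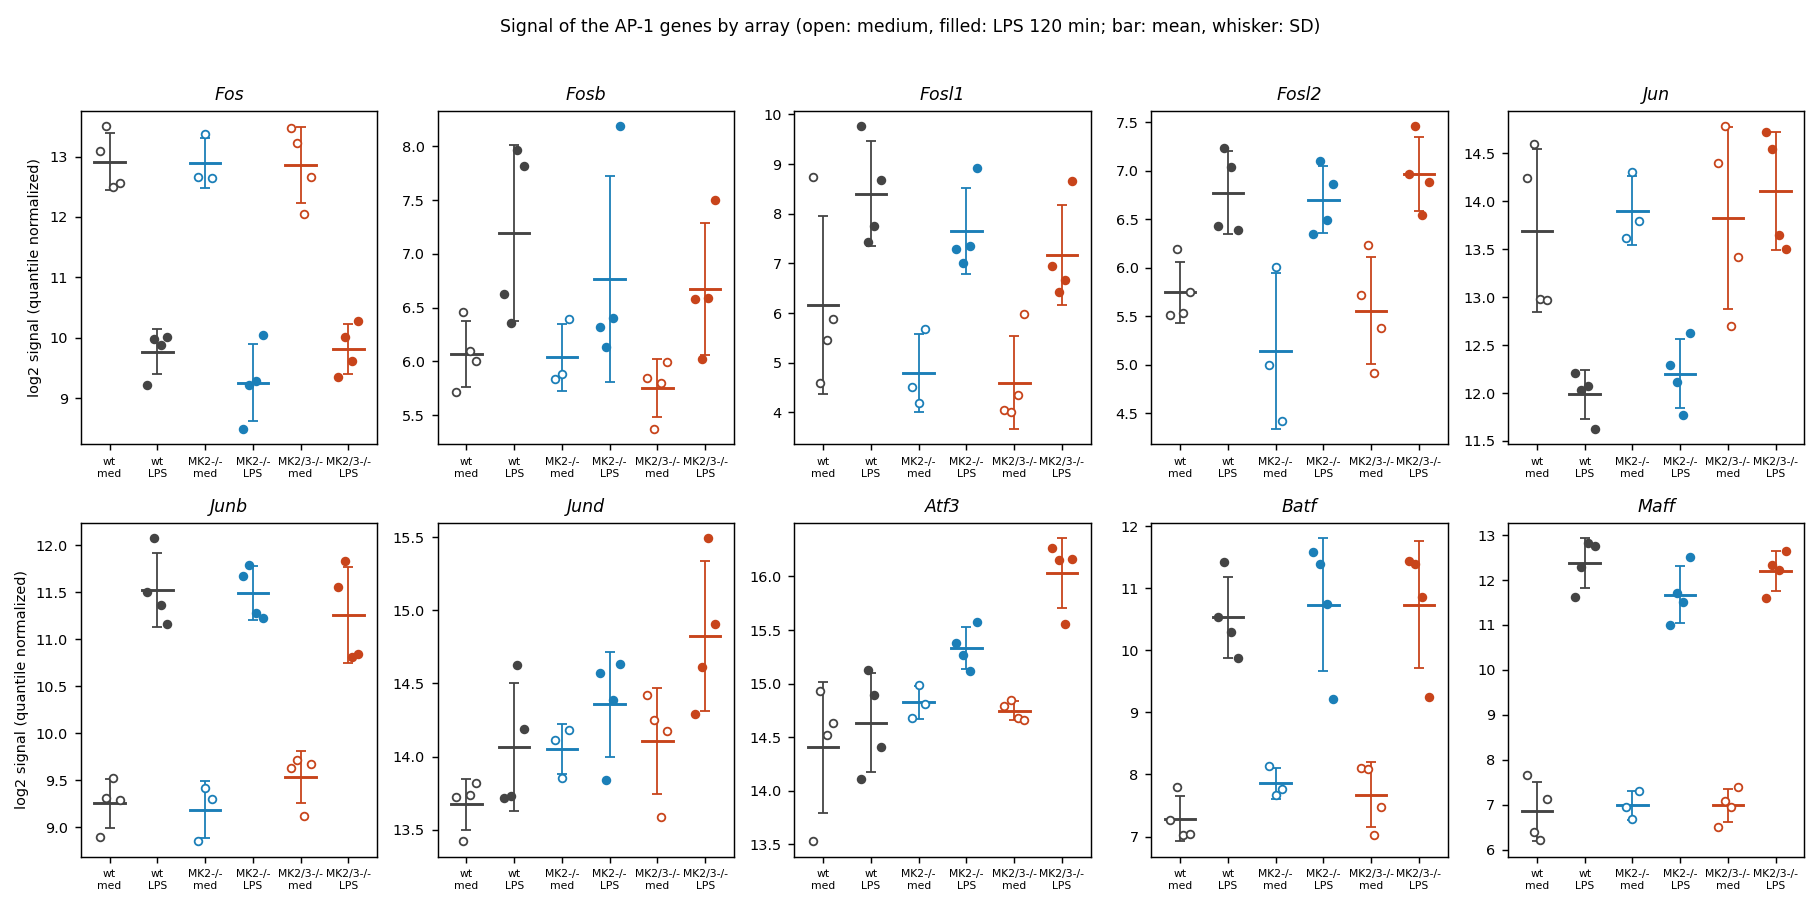
Log2 quantile-normalized signal (vertical axis) of the probe used for each of the 10 genes, by array, in the 6 groups (horizontal axis). Open points are arrays in medium, filled points arrays after LPS, horizontal bars are means and whiskers the SD. Jun after LPS lay between 13.51 and 14.73 in MK2/3-/- BMDM and at or below 12.63 in the other 2 genotypes. Signals of different probes cannot be set against each other.

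Among the FOS genes, Fos itself was the member that fell most in every genotype. Its log2 signal (NM_010234, chr12:85473890-85477274, GRCm38.p6) in wt BMDM was 13.10, 13.50, 12.50 and 12.56 in medium and 9.21, 9.98, 9.89 and 10.01 after LPS. Arrays of MK2-/- BMDM read 12.67, 13.38 and 12.65 in medium and 8.49, 9.22, 9.29 and 10.05 after LPS. Arrays of MK2/3-/- BMDM read 13.47, 13.23, 12.06 and 12.67 in medium and 9.35, 10.02, 9.62 and 10.28 after LPS. Every medium array of every genotype lay above every LPS array, and in each genotype the gap between the groups was wider than the range within either. The log2 difference was -3.14 (SE 0.35, adjusted p = 1.79e-06) in wt, -3.63 (SE 0.38, adjusted p = 7.23e-07) in MK2-/- and -3.04 (SE 0.35, adjusted p = 1.86e-06) in MK2/3-/- BMDM, that is, 8.82-fold, 12.4-fold and 8.22-fold lower. In all 3 genotypes the exact permutation p was 0.0286, the smallest that these group sizes allow. The signal in bulk RNA does not tell fewer cells of a type from less RNA per cell, here or for any other member.

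Fosl1, which encodes the FOS-related protein FRA1, moved the other way but with a wide spread. Its log2 signal (NM_010235, chr19:5447698-5455938) was 8.74, 4.58, 5.46 and 5.88 in wt BMDM in medium and 9.76, 7.43, 7.75 and 8.69 after LPS. MK2-/- BMDM had log2 signals of 4.51, 4.18 and 5.68 in medium and 7.29, 7.01, 7.36 and 8.92 after LPS, and in MK2/3-/- BMDM 4.05, 4.00, 4.36 and 5.99 in medium and 6.94, 6.43, 6.66 and 8.65 after LPS. Only 1 of the 4 wt arrays after LPS lay above the first wt array in medium, whereas the groups did not overlap in the other 2 genotypes. The first MK2/3-/- array in medium was the only one on which the probe was not well above background. LPS raised Fosl1 by a log2 difference of 2.86 (SE 0.83, adjusted p = 0.0198) in MK2-/- and 2.57 (SE 0.77, adjusted p = 0.0181) in MK2/3-/- BMDM. In wt BMDM the difference was 2.24 (SE 0.77, adjusted p = 0.0525), and without the first wt array in medium it was 3.10 with an adjusted p of 0.00288. With pairs of arrays as a random block the wt difference passed (adjusted p = 0.0116). The MK2/3-/- call was lost without LPS replicate 4 (2.08, adjusted p = 0.0628) or medium replicate 2 (2.40, adjusted p = 0.0522). The MK2-/- call was lost without LPS replicate 4 (2.42, adjusted p = 0.0623), medium replicate 1 (2.71, adjusted p = 0.0703) or medium replicate 2 (2.55, adjusted p = 0.0875).

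Within each group, the array with the highest Fosl1 signal was also the array with the highest collagen signal. The 5 markers of fibroblasts and stroma (Col1a1, Col1a2, Pdgfra, Dcn and Lum) were all measured, and their summed linear signal ranged from 4453 to 104745 in wt BMDM in medium and from 3857 to 86364 after LPS. In MK2-/- BMDM it ranged from 1228 to 34202 in medium and from 1456 to 31873 after LPS, and in MK2/3-/- BMDM from 524 to 58062 and from 859.9 to 48042. Most of it came from Col1a1 and Col1a2, which encode the chains of type I collagen, while Lum was not well above background on any array and none of the 5 passed the threshold in any genotype comparison. In 6 of 6 groups the array with the highest sum was the array with the highest Fosl1 signal. Over the 23 arrays, the deviation of Fosl1 from its group mean had a Pearson r of 0.81 with that of the log2 sum, for Batf it was -0.72, for Fosl2 -0.61, for Maff 0.58, for Junb -0.57, for Atf3 -0.47, for Jun -0.46, for Fosb 0.45, for Jund 0.29 and for Fos -0.14. The arrays share their 6 group means. They may in part share mice, which the labels do not state, and the part of these cells in the values was not tested.

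Fosb, another FOS gene, had low signals on all arrays. In wt BMDM the log2 signal (NM_008036, chr7:19302696-19310118) was 5.72, 6.46, 6.10 and 6.00 in medium and 6.63, 6.36, 7.97 and 7.82 after LPS. The MK2-/- arrays read 5.84, 5.88 and 6.40 in medium and 6.32, 6.13, 6.40 and 8.19 after LPS, and in MK2/3-/- BMDM 5.84, 5.37, 5.80 and 5.99 and then 6.58, 6.03, 6.59 and 7.50. The groups overlapped in wt and MK2-/- BMDM and did not in MK2/3-/- BMDM. The differences of 1.13 (adjusted p = 0.0801), 0.72 (adjusted p = 0.331) and 0.92 (adjusted p = 0.129) all missed the threshold. The wt difference passed it with pairs of arrays as a random block (adjusted p = 0.0325), and without wt LPS replicate 2 (1.41, adjusted p = 0.0397) or MK2-/- LPS replicate 4 (1.12, adjusted p = 0.0262).

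For Fosl2, which encodes FRA2 (NM_008037, chr5:32136472-32157840), the 2 probes did not give the same picture. On the probe used, the one with the higher induction in wt BMDM, the log2 signal was 5.51, 6.19, 5.54 and 5.75 in wt BMDM in medium and 6.43, 7.23, 7.04 and 6.39 after LPS. It was 4.99, 6.01 and 4.42 in MK2-/- BMDM in medium and 6.35, 7.10, 6.50 and 6.86 after LPS, and 5.71, 6.23, 4.92 and 5.37 in MK2/3-/- BMDM in medium and 6.97, 7.46, 6.54 and 6.89 after LPS. No group in medium overlapped with the LPS group of its genotype, and the differences of 1.03 (SE 0.33, adjusted p = 0.0364), 1.56 (SE 0.35, adjusted p = 0.00333) and 1.41 (SE 0.33, adjusted p = 0.00308) passed the threshold.

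The other Fosl2 probe had a higher signal. In wt BMDM it read 11.23, 11.11, 10.42 and 10.74 in medium and 11.46, 10.65, 11.23 and 10.96 after LPS, which overlap. In MK2/3-/- BMDM it read 11.49, 11.08, 10.86 and 11.14 in medium and 12.94, 12.55, 11.65 and 12.23 after LPS, with every LPS array above every medium array. Its LPS differences were 0.20 for wt, -0.23 for MK2-/- and 1.20 for MK2/3-/- BMDM (adjusted p over all probes 0.817, 0.778 and 0.0164). Which of the probes follows the transcript more closely was not tested, and the wt and MK2-/- calls for Fosl2 stand on the first probe alone. That probe was picked by its LPS difference in wt BMDM, so its wt value is a description and its p no independent test. The wt call was also lost when any 1 of 5 wt arrays was left out (LPS replicate 2 or 3, medium replicate 1, 3 or 4), with differences of 0.88 to 1.03 and adjusted p of 0.0731 to 0.124.

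**Figure D2:**
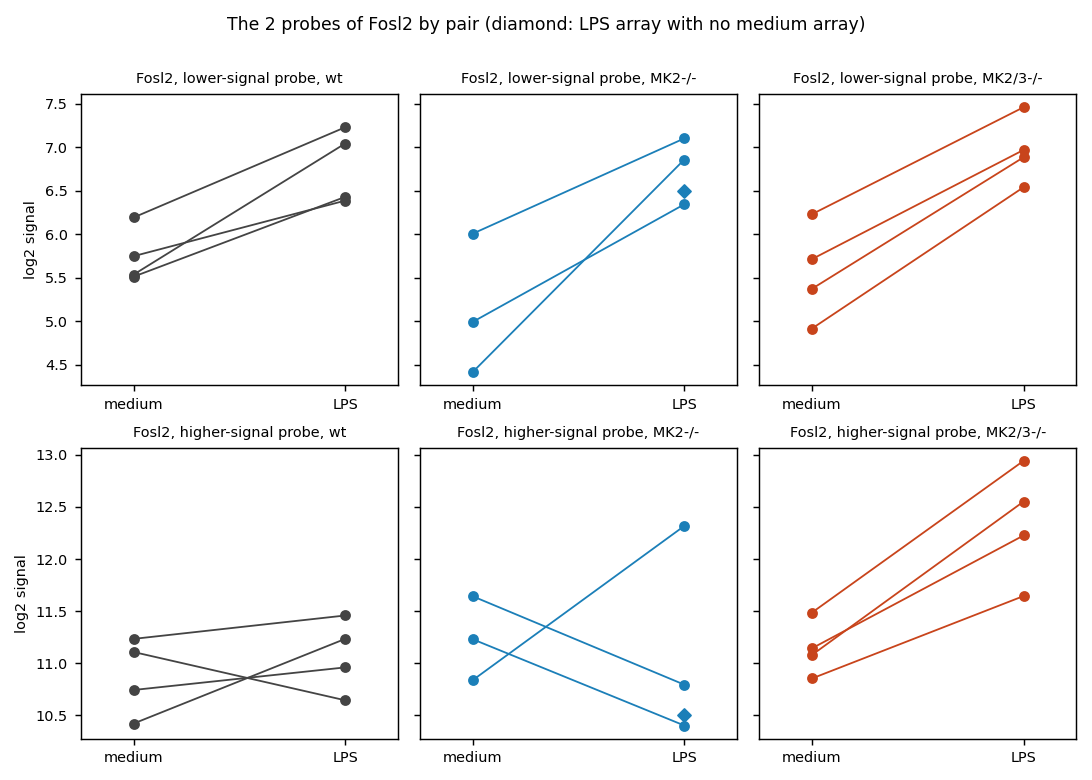
Log2 signal (vertical axis) of both Fosl2 probes in medium and after LPS (horizontal axis) for the 3 genotypes, with lines joining a pair of arrays that share replicate number and mouse age in the labels (in MK2-/- BMDM, mouse age). The diamond is the LPS array without a medium array. The lower-signal probe rises in every pair, and the higher-signal probe rises in all 4 pairs of MK2/3-/- BMDM.

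Among the JUN genes, Junb rose and Jund, the member whose product is usually present in resting cells, moved little. Junb (NM_008416, chr8:84976909-84978748) had log2 signals of 8.90, 9.31, 9.52 and 9.28 in wt BMDM in medium and 11.51, 12.07, 11.36 and 11.16 after LPS. In MK2-/- BMDM they were 8.85, 9.41 and 9.30 and then 11.68, 11.79, 11.28 and 11.22, and in MK2/3-/- BMDM 9.63, 9.71, 9.12 and 9.67 and then 11.56, 11.83, 10.81 and 10.84. The groups lay apart in all 3 genotypes. The log2 difference was 2.27 (SE 0.25, adjusted p = 1.41e-06, 4.83-fold) in wt, 2.31 (SE 0.27, adjusted p = 2.92e-06, 4.95-fold) in MK2-/- and 1.73 (SE 0.25, adjusted p = 2.53e-05, 3.31-fold) in MK2/3-/- BMDM.

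The log2 signal of Jund (NM_010592, chr8:70697739-70700616) was 13.73, 13.42, 13.73 and 13.82 in wt BMDM in medium and 13.72, 13.73, 14.63 and 14.19 after LPS. The MK2/3-/- arrays read 14.42, 14.25, 13.58 and 14.18 in medium and 14.29, 14.61, 15.49 and 14.90 after LPS. Medium and LPS arrays overlapped in both. The differences were 0.39 (adjusted p = 0.379) in wt, 0.31 (adjusted p = 0.537) in MK2-/- and 0.72 (SE 0.26, adjusted p = 0.0475) in MK2/3-/- BMDM. The last call was lost when any 1 of 17 of the 23 arrays was left out, with differences from 0.49 to 0.89 over all 23 omissions and adjusted p from 0.0190 to 0.176. It was kept without wt LPS replicate 1, 2 or 3, MK2-/- LPS replicate 2, MK2/3-/- LPS replicate 1 or MK2/3-/- medium replicate 1.

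Jun, the founding member, fell in 2 of the 3 genotypes. Its log2 signal (NM_010591, chr4:95049036-95052222) in wt BMDM was 14.24, 14.59, 12.98 and 12.97 in medium and 12.21, 12.04, 12.07 and 11.62 after LPS. For MK2-/- BMDM the values were 13.62, 14.30 and 13.79 in medium and 12.29, 12.11, 11.77 and 12.63 after LPS. MK2/3-/- BMDM gave 14.40, 14.79, 12.70 and 13.42 in medium and 14.73, 14.55, 13.65 and 13.51 after LPS. All medium arrays lay above all LPS arrays in wt and MK2-/- BMDM, while the groups of MK2/3-/- BMDM overlapped, with 2 of 4 medium arrays below every LPS array. The difference was -1.71 (SE 0.43, adjusted p = 0.00814, 3.27-fold lower) in wt and -1.70 (SE 0.47, adjusted p = 0.0133, 3.25-fold lower) in MK2-/- BMDM. The MK2/3-/- difference was 0.28 (95% interval -0.62 to 1.18, adjusted p = 0.719), and its sign turned to -0.094 without medium replicate 3. The MK2-/- call was lost without medium replicate 2 (-1.51, adjusted p = 0.0685). The wt call was kept in each of the 23 fits that left out 1 array, and the exact permutation p was 0.0286. In the test of the study's methods the wt call was lost on log2 values (adjusted p = 0.0621) and on linear values (adjusted p = 0.175).

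**Figure D3:**
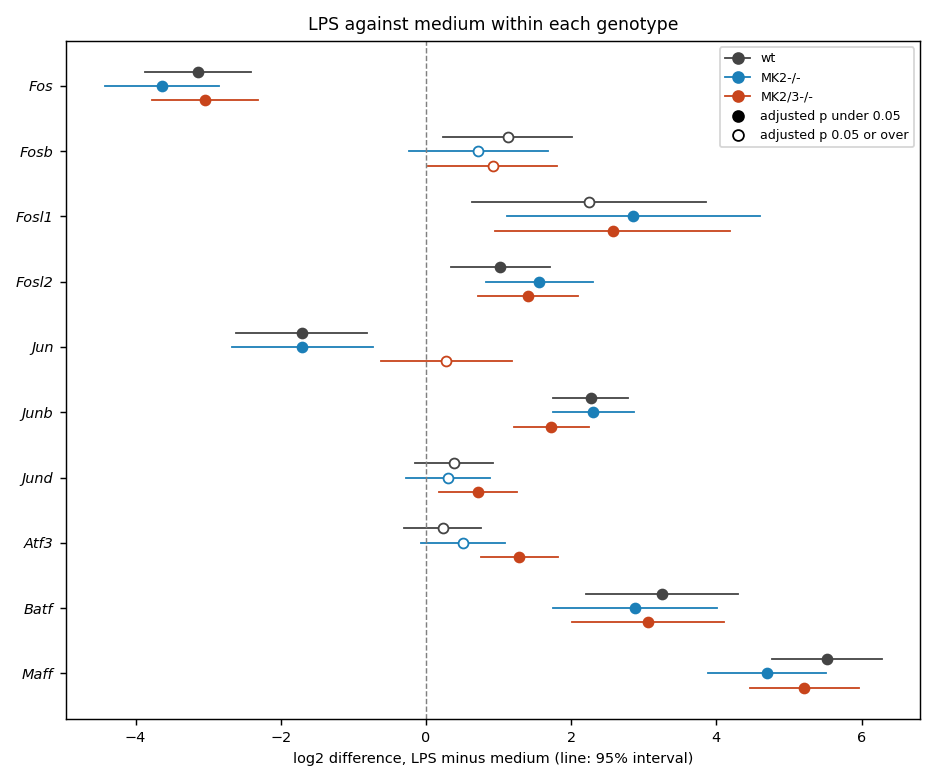
Log2 difference, LPS minus medium (horizontal axis), of the 10 genes in wt, MK2-/- and MK2/3-/- BMDM, with 95% intervals as lines and filled points for an adjusted p under 0.05. Fos lies left of zero in all genotypes, Jun at -1.71, -1.70 and 0.28, and Maff farthest to the right at 5.52, 4.69 and 5.21.

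Of the members that pair with JUN or act through small MAF complexes, Maff changed most. Its log2 signal (NM_010755, chr15:79346621-79359078) was 7.65, 6.40, 6.21 and 7.13 in wt BMDM in medium and 11.61, 12.30, 12.82 and 12.76 after LPS. MK2-/- arrays gave 6.95, 6.68 and 7.32 and then 10.99, 11.71, 11.50 and 12.51, and in MK2/3-/- BMDM 6.50, 7.08, 6.95 and 7.40 and then 11.59, 12.34, 12.21 and 12.65. No medium array reached the lowest LPS array of any genotype. The rise was 5.52 (SE 0.36, adjusted p = 1.28e-09, 46.0-fold) in wt, 4.69 (SE 0.39, adjusted p = 3.94e-08, 25.9-fold) in MK2-/- and 5.21 (SE 0.36, adjusted p = 2.31e-09, 37.1-fold) in MK2/3-/- BMDM. By log2 difference Maff was number 79 of the 26512 genes in wt BMDM, number 142 in MK2-/- and number 110 in MK2/3-/- BMDM.

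Batf, which is known from the differentiation of lymphocytes and pairs with JUN proteins, also rose in every genotype. In wt BMDM its log2 signal (NM_016767, chr12:85686720-85709087) was 7.27, 7.80, 7.02 and 7.05 in medium and 10.54, 11.43, 10.29 and 9.88 after LPS. The signals of MK2-/- BMDM were 8.13, 7.67 and 7.76 and then 11.58, 11.39, 10.75 and 9.22, and in MK2/3-/- BMDM 8.10, 8.09, 7.02 and 7.47 and then 11.44, 11.39, 10.86 and 9.25. The groups did not overlap, although the fourth LPS array of both knockouts lay well below the other three. The difference was 3.25 (SE 0.50, adjusted p = 9.10e-05, 9.51-fold) in wt, 2.88 (SE 0.54, adjusted p = 0.00063, 7.36-fold) in MK2-/- and 3.06 (SE 0.50, adjusted p = 0.000111, 8.35-fold) in MK2/3-/- BMDM.

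Atf3, a stress-induced factor known to restrain cytokine genes in macrophages, was raised by LPS in MK2/3-/- BMDM. Its log2 signal (NM_007498, chr1:191170296-191183333) was 13.53, 14.93, 14.52 and 14.64 in wt BMDM in medium and 14.11, 15.13, 14.90 and 14.40 after LPS. MK2-/- BMDM read 14.68, 14.99 and 14.81 in medium and 15.38, 15.26, 15.11 and 15.58 after LPS. Arrays of MK2/3-/- BMDM read 14.79, 14.85, 14.68 and 14.66 in medium and 16.27, 16.16, 15.55 and 16.16 after LPS. The wt groups overlapped almost wholly, whereas all LPS arrays of both knockouts lay above their medium arrays. In MK2/3-/- BMDM the difference was 1.29 (SE 0.26, adjusted p = 0.000775, 2.44-fold). The wt value was 0.23 (SE 0.26, adjusted p = 0.661), that of MK2-/- BMDM 0.51 (SE 0.28, adjusted p = 0.242). The wt value turned to -0.062 without medium replicate 1, and with arrays scaled to their 75th percentile the MK2-/- value was 0.93 (adjusted p = 0.0255), where the median of all genes was 0.20.

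Counted by overlap, the medium and LPS groups lay apart for 6 members in wt BMDM (22.8% of all genes), for 8 in MK2-/- BMDM (32.7%) and for 8 in MK2/3-/- BMDM (26.3%). In wt BMDM these were the members past the threshold. In MK2-/- BMDM Atf3 was added to those past it, and in MK2/3-/- BMDM Fosb lay apart while Jund did not.

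The second question was whether the members differed between genotypes after LPS. In MK2/3-/- against wt BMDM 2 of 10 members passed the threshold, Jun and Atf3, both higher, while 1.64% of all genes passed (0.773% higher). Jun was higher by 2.12 (SE 0.43, 95% interval 1.22 to 3.03, adjusted p = 0.0167, 4.36-fold), with means of 14.11 ± 0.62 in MK2/3-/- and 11.98 ± 0.25 in wt BMDM (SD, n = 4 each, exact permutation p = 0.0286). Atf3 was higher by 1.40 (SE 0.26, 95% interval 0.86 to 1.93, adjusted p = 0.00886, 2.64-fold), with means of 16.03 ± 0.32 and 14.63 ± 0.46 (SD, n = 4 each, exact permutation p = 0.0286). For both genes every MK2/3-/- array lay above every wt array, which held for 5.84% of all genes in either direction.

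The Atf3 call was kept in each of the 23 fits that left out 1 array (adjusted p 0.0017 to 0.0435). The Jun call was lost in 3 of them, without wt LPS replicate 4 (2.00, adjusted p = 0.0650), MK2/3-/- LPS replicate 1 (1.91, adjusted p = 0.0577) or replicate 2 (1.97, adjusted p = 0.0600). When the 2 groups alone were fitted, neither passed, with adjusted p of 0.125 for Jun and 0.176 for Atf3.

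Beside them, Jund was higher in MK2/3-/- than in wt BMDM after LPS by 0.76 (95% interval 0.22 to 1.30), with an adjusted p of 0.168. For the other members the difference was 0.04 for Fos, -0.52 for Fosb, -1.24 for Fosl1, 0.19 for Fosl2, -0.27 for Junb, 0.20 for Batf and -0.17 for Maff, none past the threshold. The interval of Fosl1 ran from -2.85 to 0.37 and so holds differences of several-fold. The higher-signal Fosl2 probe gave 1.27 (adjusted p over all probes 0.0809).

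**Figure D4:**
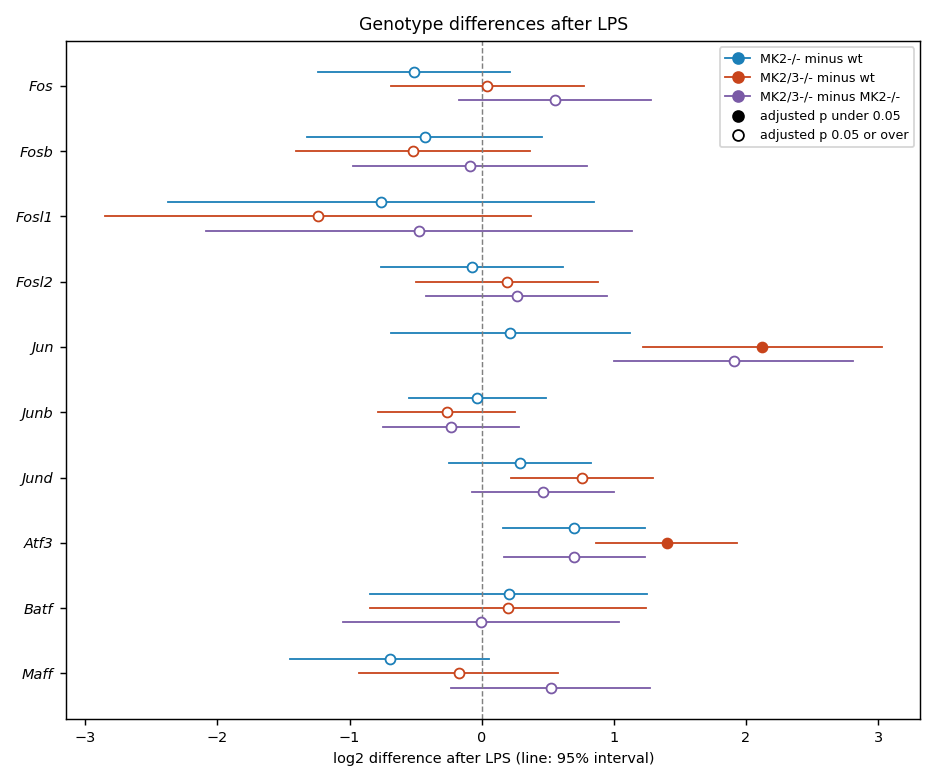
Log2 difference between genotypes after LPS (horizontal axis) for the 10 genes, with 95% intervals as lines and filled points for an adjusted p under 0.05. Only Jun at 2.12 and Atf3 at 1.40, both for MK2/3-/- minus wt, are filled.

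In MK2-/- against wt BMDM after LPS 0 of 10 members passed in limma, against 0.0302% of all genes, so that few genes of any kind passed here. Before adjustment 1 member had a p under 0.05, Atf3 (7.5% of all genes). The test of the study's methods also gave 0 after adjustment, and 1 before it, where on log2 values it called 5.39% of all genes. Atf3 was higher by 0.70 (adjusted p = 0.568, 1.62-fold, exact permutation p = 0.0571), and Jun by 0.22 (95% interval -0.69 to 1.12, adjusted p = 0.950). Maff had the largest negative difference but for Fosl1, -0.70 (95% interval -1.45 to 0.06, adjusted p = 0.681), and Fosl1 was at -0.76.

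In MK2/3-/- against MK2-/- BMDM after LPS 0 of 10 members passed in limma (0.158% of all genes), and before adjustment 2 had a p under 0.05 (7.94%), Jun and Atf3. The test of the methods gave 0 after adjustment, and 2 before it, where on log2 values it called 6.6% of all genes. Jun was higher by 1.91 (95% interval 1.00 to 2.81, 3.75-fold), with every MK2/3-/- array above every MK2-/- array (exact permutation p = 0.0286), as were 5.16% of all genes in either direction, but its adjusted p was 0.0967. Atf3 was higher by 0.70 (adjusted p = 0.429, exact permutation p = 0.0571). These counts rest on the probe used for each gene. The higher-signal Fosl2 probe gave a larger difference than Atf3, 1.335 (SE 0.36, adjusted p over all probes 0.188).

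In medium no member passed in any of the 3 genotype comparisons, nor did one have a p under 0.05 before adjustment. Of all genes 0.00754%, 0.0792% and 0.0453% passed for MK2-/- against wt, MK2/3-/- against wt and MK2/3-/- against MK2-/- BMDM (3.4%, 4.66% and 3.62% unadjusted). The test of the methods gave 0 after adjustment, and 1 before it for MK2-/- against wt BMDM, where it called 5.44% of all genes. Jun in medium averaged 13.69 ± 0.85 in wt (SD, n = 4), 13.90 ± 0.36 in MK2-/- (n = 3) and 13.83 ± 0.95 in MK2/3-/- BMDM (n = 4). Atf3 in medium averaged 14.40 ± 0.61, 14.83 ± 0.15 and 14.75 ± 0.089 in the same order. Jund was the only member whose groups lay apart in medium, higher in MK2-/- than in wt BMDM by 0.38 (exact permutation p = 0.0286, adjusted p = 1), as were 7.01% of all genes in either direction.

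Differences between genotypes in the LPS response were tested by the interaction of LPS with genotype. No member passed in limma for MK2-/- against wt, MK2/3-/- against wt or MK2/3-/- against MK2-/- BMDM, and 0.00377%, 0.0113% and 0% of all genes did. Before adjustment 0, 2 and 1 members had a p under 0.05, against 1.92%, 4.55% and 2.89% of all genes. For Jun the response in MK2/3-/- BMDM exceeded that in wt by 1.99 (SE 0.61, adjusted p = 0.651) and that in MK2-/- BMDM by 1.98 (SE 0.63, adjusted p = 1). For Atf3 it exceeded that in wt BMDM by 1.06 (SE 0.36, adjusted p = 0.796). On the higher-signal Fosl2 probe it exceeded that in wt by 1.00 (SE 0.50) and that in MK2-/- BMDM by 1.43 (SE 0.52). Neither passed the adjusted threshold over all probes. The LPS responses of Jun and Atf3 in MK2/3-/- BMDM thus missed the adjusted threshold for a difference from those in wt BMDM.

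**Figure D5:**
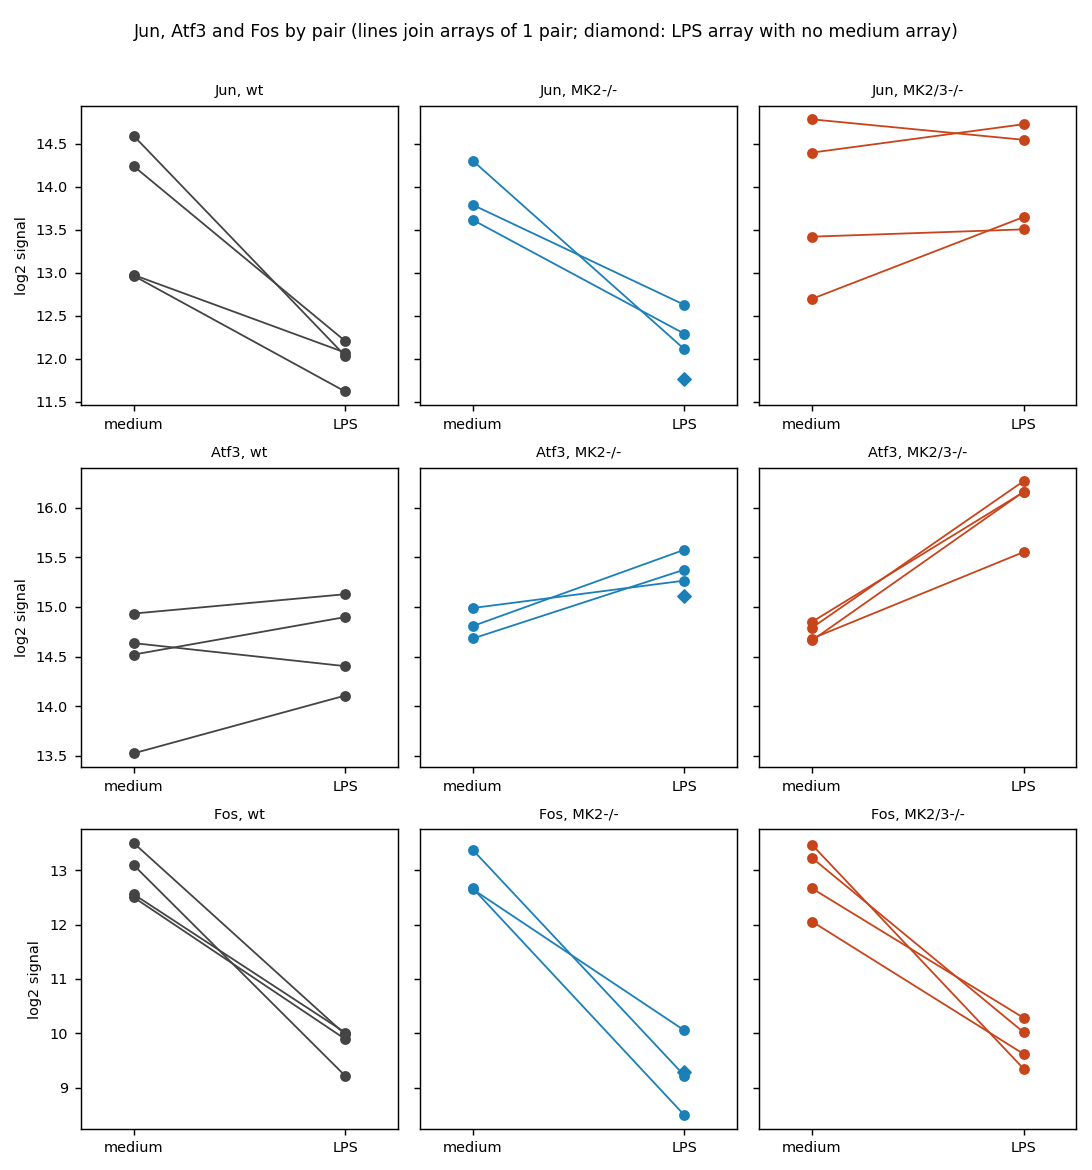
Log2 signal (vertical axis) of Jun, Atf3 and Fos in medium and after LPS (horizontal axis) for the 3 genotypes. Lines join a pair of arrays that share replicate number and mouse age in the labels (in MK2-/- BMDM, mouse age), and the diamond is the LPS array without a medium array. Jun falls in all 4 wt and all 3 MK2-/- pairs and rises in 3 of 4 MK2/3-/- pairs, Atf3 rises in all 4 MK2/3-/- pairs, and Fos falls in every pair.

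By pair, Jun changed by -2.56 to -0.90 in wt, by -2.19 to -1.16 in MK2-/- and by -0.24 to 0.95 in MK2/3-/- BMDM. Atf3 changed by -0.23 to 0.58 in wt, by 0.28 to 0.77 in MK2-/- and by 0.87 to 1.50 in MK2/3-/- BMDM. Maff rose in all 11 pairs, by 3.96 to 6.61 in wt, by 4.04 to 5.19 in MK2-/- and by 5.09 to 5.26 in MK2/3-/- BMDM.

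The other bZIP genes, many of which pair with or compete against the members, responded in both directions. Of 27 listed, 26 were measured (not Atf7), and with LPS 8 rose and 1 fell in wt, 7 rose and 2 fell in MK2-/- and 10 rose and 4 fell in MK2/3-/- BMDM. Of all genes 16.9%, 18.4% and 24.7% passed in the same order. The list's median log2 difference in wt BMDM was 0.31, against 0.0054 over all genes. Jdp2, which encodes a partner and repressor of JUN proteins, rose in wt BMDM by 5.73 (adjusted p = 4.87e-13), Batf2, a relative of Batf, by 3.30 (adjusted p = 0.00229), and Nfil3, a repressor with a bZIP domain, by 2.76 (adjusted p = 2.88e-06).

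After LPS 2 of the 26 were higher in MK2/3-/- than in wt BMDM and none was lower, while 1.64% of all genes passed (0.773% higher). Batf3, which is needed for a class of dendritic cells, was higher by 1.95 (SE 0.42, adjusted p = 0.0249), with means of 9.28 and 7.33. LPS changed it by 2.08 in MK2/3-/- BMDM and by -0.11 in wt BMDM, but the interaction passed for none of the 26. Nfil3 was higher by 1.36 (SE 0.32, adjusted p = 0.0354), with means of 14.90 ± 0.69 and 13.54 ± 0.54 (SD, n = 4 each). Leaving out 1 array at a time kept the Batf3 call in 20 of 23 fits, all but those without wt LPS replicate 1 or MK2/3-/- LPS replicate 1 or 2, and the Nfil3 call in 18, all but those without wt LPS replicate 1 or 4 or MK2/3-/- LPS replicate 1, 2 or 3. Neither passed when the 2 groups alone were fitted (adjusted p of 0.343 for Batf3 and 0.359 for Nfil3) or in the test of the study's methods on log2 values (0.454 and 0.465).

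Kinases and factors upstream of AP-1 were measured for all 33 genes listed. With LPS 11 rose and 2 fell in wt, 12 rose and 3 fell in MK2-/- and 14 rose and 4 fell in MK2/3-/- BMDM, with a median of 0.27 in wt BMDM, and none passed in a genotype comparison. Of all genes 16.9%, 18.4% and 24.7% passed with LPS in this order, and 1.64% for MK2/3-/- against wt BMDM after LPS. Map3k8, the kinase TPL2 that activates the ERK pathway downstream of LPS, rose in wt BMDM by 2.86 (adjusted p = 4.91e-06), and Map3k5, the stress kinase ASK1, by 1.87 (adjusted p = 0.00758). Creb1, a factor that binds the cyclic AMP response element and is on both lists, rose by 1.49 (adjusted p = 6.57e-06), and Map3k1, which feeds the JNK pathway, fell by 2.03 (adjusted p = 5.68e-07).

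Textbook targets of AP-1 were measured for all 30 genes listed, and 15 rose and 0 fell with LPS in wt BMDM, 17 rose and 1 fell in MK2-/- and 16 rose and 2 fell in MK2/3-/- BMDM. Their median in wt BMDM was 2.16, against 0.0054 over all genes, of which 16.9%, 18.4% and 24.7% passed in the same order. The largest rises were those of the cytokines and the chemokine Il6 (11.67), Cxcl2 (8.90), Il1b (8.63) and Tnf (8.02), where Il6 in medium was well above background on only 2 of 4 wt arrays. Many of these genes are also known targets of NF-kB.

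After LPS 3 of the 30 targets differed between MK2/3-/- and wt BMDM, 1 higher and 2 lower, while 1.64% of all genes passed. Il2 was lower, at -3.06 on the log2 scale (adjusted p = 0.0195) and Cxcl2 at -2.12 (adjusted p = 0.0226), while Cd44, an adhesion receptor, was higher by 1.15 (adjusted p = 0.0311). These calls were kept in 19, 18 and 17 of the 23 fits that left out 1 array. All were lost without replicate 1 or 4 of wt LPS and 1 or 2 of MK2/3-/- LPS, that of Cxcl2 also without MK2/3-/- LPS replicate 3, and that of Cd44 without replicate 3 or 4. None passed when the 2 groups alone were fitted (adjusted p of 0.307 for Il2, 0.116 for Cxcl2 and 0.147 for Cd44) or in the test of the study's methods on log2 values (0.429, 0.179 and 0.197), and Cd44 did not with arrays scaled to the 75th percentile (0.0800) or after normexp background correction (0.0665).

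The genes whose log2 signal followed a member most closely over the 23 arrays were sought among 15932 genes detected throughout at least 1 group, by Pearson's r, as a description with no test. For Fos they were Cln8 (0.980) and Zfp710 (0.979), for Junb Fnbp1l (0.984) and Spryd7 (0.983), for Batf Sap30 (0.984) and Hdc (0.982), and for Maff Kdm6b (0.987) and Rapgef2 (0.986). The values were lower for Jun, with Ube2o (0.858) and Nrros (0.854), for Jund, with Arap1 (0.874) and Hdac4 (0.866), and for Atf3, with Prr5l (0.912) and Stag2 (0.906). For Fosb they were Sh2b2 (0.936) and Fam110a (0.860), for Fosl1 Ereg (0.941) and Tnfrsf10b (0.915), and for Fosl2 Hspa5 (0.918) and Rbm12 (0.912). All arrays share the contrast of medium and LPS.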

How the data were processed

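RNA of BMDM was hybridised to 23 Agilent arrays with 1 dye, and the authors extracted the spots with Agilent Feature Extraction 11.0.1.1 (processing notes and file headers). The intensity deposited by the authors for each spot is linear, with the background subtracted and gradients within the array removed (file headers), and arrays had not yet been normalized to each other. The gradient fit was missing on 2 arrays. The log2 values deposited by the authors were quantile normalized and set relative to each probe's median, and they had a Pearson r of 1.00 with the values computed here. In the study's methods, values under 5 were set to 5 for a comparison by thresholds on fold change and absolute difference. A further comparison there used Student's t-test on values normalized to untreated wt BMDM. Its threshold was a p under 0.05, and no adjustment is named.

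Of 62976 spots per array, 59305 were not controls, and none of these was saturated. Marked outlier spots were left out (258 of 1280663 probe values missing), intensities were log2 transformed, spots of a probe averaged and arrays quantile normalized (R 4.3.3, limma 3.58.1, data.table (1.17.8); figures in Python 3.11.15, matplotlib 3.10.9). Probes carrying an accession of RefSeq or GenBank, 33391 in all, entered. Of the 29150 RefSeq probes, 27509 were named with the GRCm38.p6 annotation, giving 20887 named genes, and 5625 further entries kept their accession as name. Where a gene had several probes, the one most induced by LPS in wt BMDM stood for it.

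All arrays entered 1 linear model of 6 group means (lmFit, eBayes), two-sided, adjusted by Benjamini and Hochberg over 26512 genes at 0.05. Adjusted p-values are from limma unless another tool is named, and an exact permutation test was added for single members. The fit was tested on simulated data. Arrays of a group came from separate experiments per the study's methods, and their number limits the precision. Alternatives were another scaling, background correction, filter, probe choice, test, fit and omission of arrays.

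The members and lists were chosen with earlier results of these data known. Named are the members, Mapkapk2 and Mapkapk3, of each list up to 4 genes with the largest LPS difference in wt BMDM and up to 4 past the threshold in a genotype comparison, and the 2 genes most alike to each member. Marker genes are named besides. Some genes that these rules name are not reported here.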

Additional observations from a re-analysis of the deposited data

Results flagged for a closer look

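Single arrays far from the others of their group were sought for the 10 members in the 5 groups of 4 arrays, by the gap to the nearest array over the range of the group (Dixon's test). Of 50 groups tested 4 stood out, where chance gives about 2.5, 1 in 20. The log2 signal of Fos in wt BMDM after LPS, replicate 1, was 9.21, below the 9.89 to 10.01 of the other arrays, and Fos was lower after LPS with or without it. Fosb in MK2-/- BMDM after LPS, replicate 4, was at 8.19, above the 6.13 to 6.40 of the other arrays. Junb in MK2/3-/- BMDM in medium, replicate 3, was at 9.12, below 9.63 to 9.71. Atf3 in MK2/3-/- BMDM after LPS, replicate 3, was at 15.55, below 16.16 to 16.27 but above the 15.13 that was the highest wt array after LPS.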

How the results depend on the processing

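In the 4 comparisons in which members passed, their count stayed within 1.5 times that reported in 143 of 152 refits, and in the other 8 comparisons the count was 0 throughout. The exceptions were the 3 fits without 1 array that lost Jun for MK2/3-/- against wt BMDM after LPS (1 member), the t-test of the study's methods on linear values, with 3 of 10 members for LPS in wt BMDM (9.1% of all genes), 3 in MK2-/- BMDM (12.5%), 5 in MK2/3-/- BMDM (15.4%) and 0 for MK2/3-/- against wt BMDM after LPS, and, for this last comparison, 0 with the t-test on log2 values and 0 when its groups alone were fitted (0.0151%, 0.0189% and 0.0226% of all genes). Before adjustment the t-test on log2 values called 7, 8 and 8 members for LPS (26.9%, 29% and 30.9% of all genes) and 2 for MK2/3-/- against wt BMDM after LPS (9.34%). After adjustment the same test on log2 values called 4, 6 and 6 members for LPS in wt, MK2-/- and MK2/3-/- BMDM. Leaving out 1 array at a time gave 5 to 8 members for LPS in wt BMDM. For LPS it gave 5 to 7 in the MK2-/- and 6 to 8 in the MK2/3-/- genotype. It gave 1 to 2 for MK2/3-/- against wt BMDM after LPS, and 0 in every other comparison.

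Leaving out 1 array at a time gave LPS differences from -0.062 (without medium replicate 1) to 0.41 for Atf3 in wt BMDM and from -0.094 (without medium replicate 3) to 0.60 for Jun in MK2/3-/- BMDM. The sign also turned for Fosl2 with LPS in MK2-/- BMDM on its other probe (-0.23), none of them past the threshold. Of all other values of single genes, 2144 kept direction and call, 114 lost the call and 13 gained it. Fosl1 lost the call after normexp background correction in MK2-/- (1.43, adjusted p = 0.0675) and MK2/3-/- BMDM (1.14, adjusted p = 0.102). Scaling to the 75th percentile shifted the median LPS difference of all genes to 0.15 for wt, 0.20 for MK2-/- and 0.063 for MK2/3-/- BMDM, and to 0.15 for MK2/3-/- against wt BMDM after LPS. It gave 5, 8, 8 and 2 members (15.6%, 17%, 21.4% and 1.57% of all genes), and Fosl2 in wt BMDM missed the threshold (0.99, adjusted p = 0.0978).

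Arrays were paired by replicate number and mouse age, in MK2-/- BMDM by age. Deviations from the group means correlated by 0.0626 to 0.561 over the 11 pairs, above 0.1 in 10, and over detected genes by 0.360 to 0.774, above 0.1 in all 11. The labels state no shared culture, so the pairs were not part of the model reported. With the replicate block (pairs as a random block) 8 members (21.7% of all genes) passed for LPS in wt BMDM, with Fosb (adjusted p = 0.0325) and Fosl1 (adjusted p = 0.0116) added, 7 (23.5%) in MK2-/- BMDM, 8 (30.6%) in MK2/3-/- BMDM and 2 (1.66%) for MK2/3-/- against wt BMDM after LPS, and the block changed no other member's call.

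Chosen after seeing the data were the other probe of Fosl2, the fit without the 2 arrays lacking a gradient fit (Fosl1 in MK2/3-/- BMDM 2.39, adjusted p = 0.0615) and the fit without the MK2/3-/- medium arrays of the lowest and highest share of detected probes (Fosl1 2.02, adjusted p = 0.163). The cause of these changes was not tested.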
